A study of Mus musculus with 247 samples.

Results

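NF-kB is a family of transcription factors that act as dimers, and the inhibitors of kappa B (IkB proteins) hold those dimers or shape what they do. The account below covers 10 genes of this system in RAW264.7, a mouse macrophage cell line: the subunit genes Nfkb1, Nfkb2, Rel, Rela and Relb, the cytoplasmic inhibitor genes Nfkbia, Nfkbib and Nfkbie, and the nuclear inhibitor genes Nfkbiz and Bcl3. They were taken by gene symbol, and are 10 of the 14378 genes in the RNA table. All 10 passed the filter on low values, which left 11791 genes. Sites assigned to them as the nearest gene by the deposited annotation were 69 of 73206 in ATAC-seq, 67 of 52093 for PU.1, 80 of 58888 for JunB, 46 of 26718 for MED1 and 34 of 23360 for RNA polymerase II. Each of the 10 genes had at least 1 site in every table.

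In resting cells the cytoplasmic inhibitors keep NF-kB dimers out of the nucleus. Lipopolysaccharide (LPS), a component of the outer membrane of Gram-negative bacteria, acts on macrophages through the receptor encoded by Tlr4. The kinase complex that it activates marks the inhibitors for destruction, and the freed dimers bind kappaB sites in the DNA. Several inhibitor and subunit genes are themselves NF-kB targets, which is the textbook example of negative feedback in this tissue. Nfkbiz and Bcl3 encode inhibitor-like proteins that work in the nucleus with dimers of the Nfkb1 and Nfkb2 products.

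GPS2 belongs to the NCoR and SMRT corepressor complex, and the study concerns what it does at enhancers when macrophages are activated. The groups used here are GPS2 knockout (KO) cells made by CRISPR with LPS, wild-type (WT) cells with LPS, untreated KO cells and untreated WT cells, all of the line RAW264.7, of which the labels give the strain as BALB/c. Poly(A) RNA was sequenced with 4 libraries per group, after 6 hours with 10 ng/ml LPS where LPS was given. ChIP-seq was done after 2 hours with LPS, with 2 libraries per group, for PU.1 and JunB in all 4 groups and for MED1 and RNA polymerase II in the groups with LPS. PU.1 is the lineage factor of macrophages, JunB a subunit of AP-1 and MED1 a subunit of Mediator. ATAC-seq, which reads open chromatin, covered untreated KO cells and untreated control cells with 3 libraries each, from triplicate wells. Clones of the KO line are not named in the labels, and a clonal difference and the loss of GPS2 cannot be told apart. They do not say that the RNA libraries came from separate cultures, so p-values measure only the spread between these samples, which may be technical. In bulk RNA, fewer cells that express a gene and less RNA per cell cannot be told apart.

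The motif called kappaB here is a 10-letter consensus that NF-kB dimers bind. It was searched on both strands in the 250 bases before the annotated start, in 9 promoters of 7 of the genes from the RefSeq table of build GRCm38.p6. Nfkb1, Relb and Nfkbiz had no entry matched. A match was found in 6 of the 9 promoters (66.667%), against 2382 of all 32851 promoters (7.251%). The 3 Nfkb2 promoters lie close together and are not independent. The promoters are printed because the RNA of these genes is described below. Bcl3, the gene with the largest difference between KO and WT cells, has no match in this window, and is shown beside 4 promoters that have one. Capitals mark kappaB matches, and overlapping matches run together.
Bcl3 (GRCm38.p6 chr7:19822756-19823005, minus strand): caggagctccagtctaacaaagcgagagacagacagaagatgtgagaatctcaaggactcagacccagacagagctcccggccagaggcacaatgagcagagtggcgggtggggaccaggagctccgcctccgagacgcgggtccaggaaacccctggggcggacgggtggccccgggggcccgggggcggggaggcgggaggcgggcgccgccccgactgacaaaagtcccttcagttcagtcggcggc
Nfkbie (GRCm38.p6 chr17:45555450-45555699, plus strand): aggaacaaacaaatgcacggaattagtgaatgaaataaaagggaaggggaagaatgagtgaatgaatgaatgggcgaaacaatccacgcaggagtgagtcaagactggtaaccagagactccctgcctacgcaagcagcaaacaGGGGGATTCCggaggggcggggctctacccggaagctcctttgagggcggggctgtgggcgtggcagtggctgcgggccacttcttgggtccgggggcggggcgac
Nfkbia (GRCm38.p6 chr12:55492648-55492897, minus strand): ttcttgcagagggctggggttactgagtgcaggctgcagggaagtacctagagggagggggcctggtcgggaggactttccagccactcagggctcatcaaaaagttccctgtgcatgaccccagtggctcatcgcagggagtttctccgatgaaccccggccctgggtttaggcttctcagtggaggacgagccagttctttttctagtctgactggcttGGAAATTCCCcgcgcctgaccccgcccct
Nfkb2 (GRCm38.p6 chr19:46304487-46304736, plus strand): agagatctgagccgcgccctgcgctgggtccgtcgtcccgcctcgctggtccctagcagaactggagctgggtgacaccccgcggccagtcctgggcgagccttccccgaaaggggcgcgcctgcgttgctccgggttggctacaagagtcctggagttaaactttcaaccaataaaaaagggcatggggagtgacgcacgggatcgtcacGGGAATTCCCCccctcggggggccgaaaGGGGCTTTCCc
Rel (GRCm38.p6 chr11:23770970-23771219, minus strand): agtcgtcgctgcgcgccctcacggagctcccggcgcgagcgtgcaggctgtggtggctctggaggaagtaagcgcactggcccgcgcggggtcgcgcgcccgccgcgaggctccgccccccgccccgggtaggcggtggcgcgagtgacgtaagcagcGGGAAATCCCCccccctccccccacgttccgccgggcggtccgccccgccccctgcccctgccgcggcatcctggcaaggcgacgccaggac
The first base of the Nfkbia match lies 29 bases before the start and that of the Nfkbie match 106 bases before it. The Nfkb2 promoter printed has 3 matches, which begin 39, 38 and 11 bases before the start, and Rel has 2 that overlap, at 92 and 91. A match describes letters and does not show binding.

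RNA libraries held 12094940 to 22968591 mapped reads and ATAC-seq libraries 4038814 to 7108592. In ChIP-seq the PU.1 libraries held 8096466 to 10389811, the JunB libraries 8649049 to 16006472, the MED1 libraries 9793462 to 11932305 and the RNA polymerase II libraries 10230448 to 11113625. RNA levels below are reads per 10000000 mapped reads after trimmed mean scaling. Every macrophage marker listed (10 of 10) was tested, and their summed level ran from 108800 to 114500 in KO cells with LPS, from 87140 to 114900 in WT cells with LPS, from 119100 to 125600 in untreated KO cells and from 85890 to 94770 in untreated WT cells. Of these 10, 5 were higher and 3 lower in KO cells with LPS (44.1% of all genes tested passed), and 5 were higher and 1 lower in untreated KO cells (35.5% of all passed). With LPS Csf1r, a growth factor receptor gene, differed by 1.39 and Spi1, which encodes PU.1, by -0.53 on the log2 scale. Sums of the lymphocyte list stayed at or under 0.6517, and those of the fibroblast and epithelium list at or under 1.097. Granulocyte sums ran from 15.61 to 20.85 in KO cells with LPS, from 3.56 to 19.33 in WT cells with LPS, from 2.551 to 6.735 in untreated KO cells and from 0 to 0.5485 in untreated WT cells. Dendritic cell sums ran from 80.78 to 93.26 in KO cells with LPS, from 58.87 to 105.4 in WT cells with LPS, from 32.29 to 38.26 in untreated KO cells and from 21.39 to 31.93 in untreated WT cells. The part of these markers in the results was not tested. The RNA table used here lists 1 of 7 lymphocyte, 1 of 6 fibroblast and epithelium, 2 of 6 granulocyte and 2 of 4 dendritic cell genes, and Cd3e, Epcam, Ly6g and Flt3 are among those not in it. Replicate 4 of WT cells with LPS stood apart from the other libraries of its group. Its pairs with them had a mean chi-square per gene of 114.771 to 160.448, against 1.27 to 10.345 in the other 21 pairs within groups. Test results of the 10 genes that include it are given without it as well where a call, a direction or an order changes. They are also given without it for each of the 10 in KO against WT cells with LPS. Results for Gps2, the marker lists and the list of other pathway genes are given only with it.

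Gps2 RNA checks the labels. It lay between 129.6 and 135.4 in untreated KO cells and between 415 and 458.3 in untreated WT cells, and with LPS between 76.87 and 98.53 in KO cells and between 420.4 and 495.5 in WT cells. The log2 changes were -1.70 ± 0.08 (SE, limma adjusted p = 8.59e-11) untreated and -2.28 ± 0.08 (SE, limma adjusted p = 5.41e-12) with LPS, so the RNA was lower and still present in the KO cells.

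With LPS, 7 of the 10 genes were lower and 1 higher in KO cells than in WT cells. Of all 11791 genes tested 44.1% passed in either direction, 22.1% lower and 22.1% higher. The median log2 change of the 10 was -0.365, against 0.001 over all genes tested. The inhibitor genes made up both ends of the list. Bcl3 and Nfkbie fell by more than 2-fold, and Nfkbiz was the gene that rose.

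**Figure D1:**
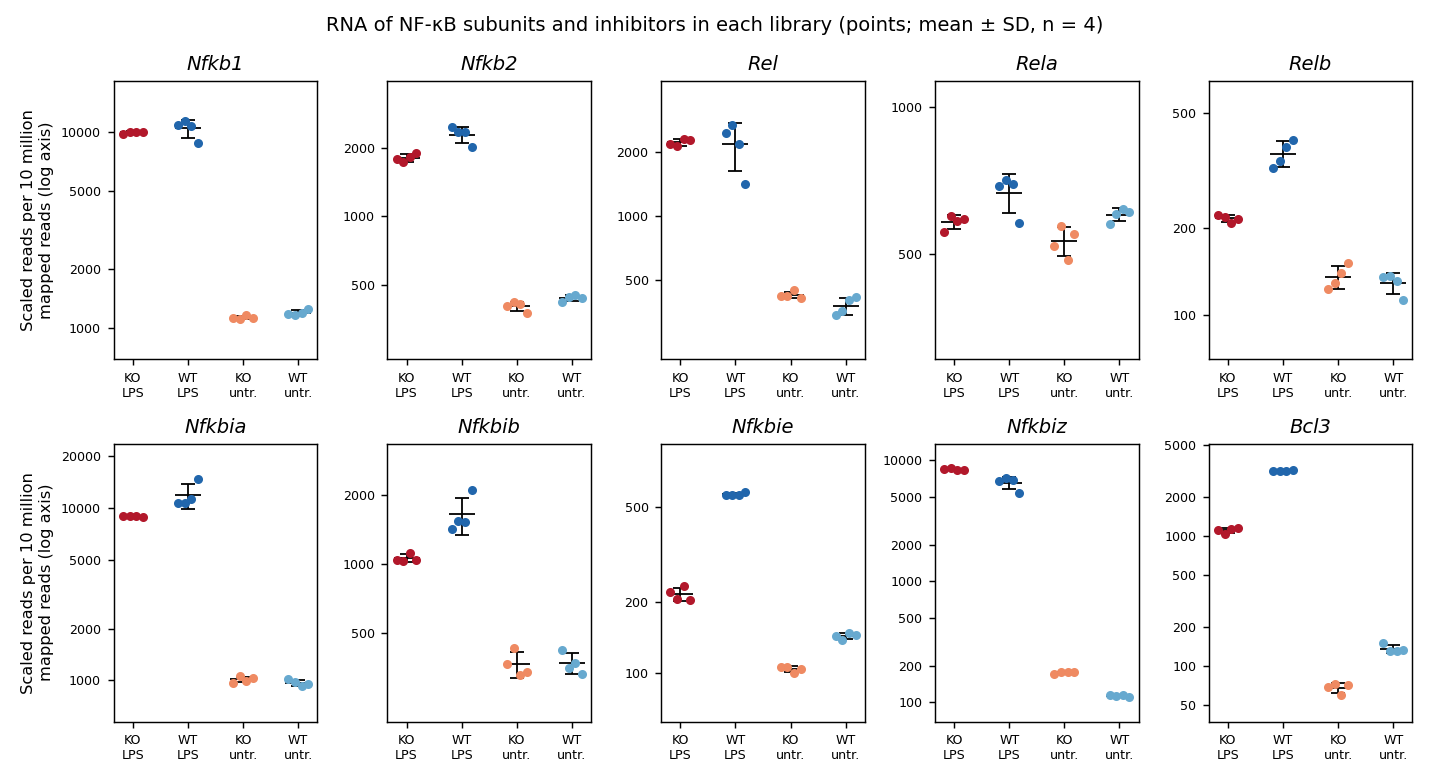
RNA of each of the 10 genes in every library, as scaled reads per 10000000 mapped reads on a log axis; points are libraries, and the bar with whiskers is the mean ± SD of 4. The 4 KO libraries with LPS lie below all 4 WT libraries with LPS for Bcl3, Nfkbie, Relb, Nfkbia, Nfkbib and Nfkb2, and above them for Nfkbiz.

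Bcl3 (NM_033601, build mm9, chromosome 7, 20393811 to 20408104, minus strand) encodes a nuclear inhibitor-like protein that limits inflammatory gene expression in mouse macrophages. With LPS its level was 1109, 1030, 1130 and 1147 in the KO libraries, against 3129, 3148, 3169 and 3182 in the WT libraries. Every KO library was far below every WT library. The means were 1104 ± 51.8 in KO cells and 3157 ± 23.3 in WT cells (SD, n = 4 each), a log2 change of -1.52 ± 0.07 (SE, limma adjusted p = 8.8e-11), or 2.86-fold lower in KO cells, and -1.51 without WT replicate 4. Untreated cells showed the same direction at a lower level, with 69.6, 73.3, 60.0 and 71.4 in KO libraries and 149.7, 131.1, 129.8 and 132.3 in WT libraries. There the log2 change was -0.98 ± 0.07 (SE, limma adjusted p = 1.3e-08).

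Nfkbie (NM_008690, chromosome 17, 45692649 to 45700117, plus strand) encodes the epsilon member of the cytoplasmic inhibitors. With LPS it was at 220.2, 205.6, 232.4 and 202.7 in KO libraries, against 561.6, 563.8, 562 and 576.3 in WT libraries. The groups did not overlap, and the 4 WT libraries lay close to each other. Its log2 change was -1.39 ± 0.06 (SE, limma adjusted p = 2.97e-11), and -1.38 without WT replicate 4. Untreated, it averaged 104.2 ± 2.79 in KO cells and 143.4 ± 4.06 in WT cells (SD, n = 4 each), a log2 change of -0.46 ± 0.06 (SE, limma adjusted p = 9.8e-06).

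Nfkbia (NM_010907, chromosome 12, 56590396 to 56593634, minus strand), which encodes the alpha inhibitor and is the best known feedback target of NF-kB, moved less. With LPS the KO libraries stood at 8932, 8944, 9011 and 8812, and the WT libraries at 10660, 10700, 11290 and 14700. All KO libraries were lower, and WT replicate 4 was the highest of all. The log2 change was -0.39 ± 0.08 (SE, limma adjusted p = 0.00121), and -0.29 without WT replicate 4 (adjusted p = 7.63e-07). Nfkbib (NM_001306222, chromosome 7, 29544057 to 29551663, minus strand), the beta inhibitor gene, was at 1036, 1032, 1118 and 1037 in KO libraries with LPS, against 1420, 1535, 1520 and 2090 in WT libraries with LPS. Its log2 change was -0.62 ± 0.11 (SE, limma adjusted p = 4.55e-04), and -0.50 without WT replicate 4 (adjusted p = 2.85e-05). Untreated, neither gene passed the test. Nfkbia averaged 1013 ± 38.4 in KO cells and 967 ± 41.9 in WT cells, and Nfkbib 363.8 ± 46.0 in KO cells and 367.7 ± 39.0 in WT cells (SD, n = 4 each).

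Nfkbiz (NM_030612, chromosome 16, 55811490 to 55838754, minus strand) encodes the zeta inhibitor, a nuclear cofactor that late LPS response genes such as Il6 need in mouse macrophages. It was the gene of the 10 that was higher in KO cells in both conditions. With LPS the KO libraries held 8501, 8590, 8323 and 8320, against 6805, 7123, 6840 and 5407 in WT libraries. The log2 change was 0.37 ± 0.07 (SE, limma adjusted p = 4.62e-04), and 0.28 without WT replicate 4, which was the lowest (adjusted p = 6.59e-07). Untreated levels were 171.2, 177.6, 178.6 and 176 in KO libraries, against 114.7, 112.4, 113.6 and 110.2 in WT libraries. There the groups did not overlap either, and the log2 change was 0.64 ± 0.07 (SE, limma adjusted p = 2.61e-06).

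Among the subunits Relb (NM_001290457, chromosome 7, 20191572 to 20214787, minus strand), the partner of the Nfkb2 product in the non-canonical pathway, changed most. With LPS it was at 221.5, 219.2, 208.3 and 216.1 in KO libraries, against 324, 341.7, 381.2 and 404.1 in WT libraries. The log2 change was -0.74 ± 0.09 (SE, limma adjusted p = 5.28e-06), and -0.68 without WT replicate 4 (adjusted p = 7.41e-08), while untreated KO cells (135.7 ± 12.3) and WT cells (129.1 ± 11.2; SD, n = 4 each) overlapped. Nfkb2 (NM_019408, chromosome 19, 46380185 to 46386580, plus strand) ran from 1734 to 1895 in KO cells with LPS and from 2015 to 2462 in WT cells with LPS, a log2 change of -0.34 ± 0.06 (SE, limma adjusted p = 4.64e-04), and -0.40 without WT replicate 4 (adjusted p = 4.92e-08). Rela (NM_009045, chromosome 19, 5637541 to 5648134, plus strand), the subunit of the most common activating dimer, ran from 555 to 598.6 in KO cells with LPS and from 579 to 708.3 in WT cells with LPS. Its change of -0.19 ± 0.07 (SE) passed the limma test with an adjusted p of 0.033, with overlapping libraries, and missed it with library totals in place of trimmed mean scaling (adjusted p = 0.0709). Without WT replicate 4 it was -0.26 (adjusted p = 1.06e-04).

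Nfkb1 (NM_008689, chromosome 3, 135247619 to 135354511, minus strand) and Rel (NM_009044, chromosome 11, 23636850 to 23670969, minus strand) did not pass with LPS. Nfkb1 ran from 9803 to 10070 in KO cells and from 8799 to 11390 in WT cells, with WT replicate 4 the lowest. Its log2 change was -0.06 ± 0.07 (SE, limma adjusted p = 0.486), and -0.14 without that library (adjusted p = 0.00121). Rel ran from 2122 to 2303 in KO cells and from 1418 to 2684 in WT cells, and replicate 4 of WT was again the lowest. Its log2 change was 0.06 ± 0.14 (SE, limma adjusted p = 0.739), and -0.13 without that library (adjusted p = 0.0926), so the direction of the Rel difference rests on 1 library.

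Untreated, 1 of the 10 was higher (Nfkbiz) and 2 were lower (Bcl3 and Nfkbie) in KO cells, with a background of 35.5% of all tested genes (18% higher and 17.5% lower). The median change was -0.048 over the 10 and 0.008 over all genes tested. The 5 subunits did not pass. Rela came closest, at 531.7 ± 37.0 in KO cells and 602 ± 18.5 in WT cells (SD, n = 4 each), with a log2 change of -0.18 ± 0.07 (SE, limma adjusted p = 0.0538). Replicate 4 of WT cells with LPS enters this test through the common variance. Without it 3580 of all 11882 genes tested were higher and 3446 lower in KO cells, and 7 of the 10 passed. The added genes were Rel (0.17, adjusted p = 0.0201), Nfkb1 (-0.08, adjusted p = 0.0371), Nfkb2 (-0.12, adjusted p = 0.0181) and Rela (-0.18, adjusted p = 0.00196).

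**Figure D2:**
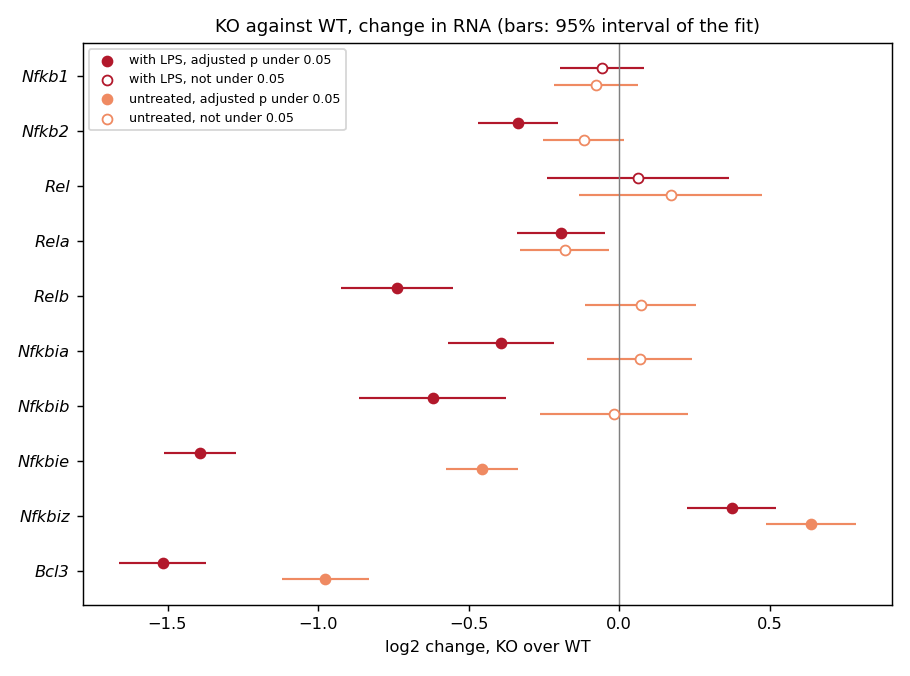
Log2 change of RNA in KO over WT cells for the 10 genes, with LPS (upper point of each pair) and untreated (lower point); bars are the 95% interval of the fit and filled points have a limma adjusted p under 0.05. Bcl3 (-1.52 with LPS and -0.98 untreated) and Nfkbie (-1.39 and -0.46) lie far to the left, and Nfkbiz (0.37 and 0.64) to the right.

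LPS raised 9 of the 10 genes in KO cells and 9 of the 10 in WT cells, and Rela did not pass in either. Without replicate 4 of WT cells with LPS all 10 passed in each genotype. Of the 11882 genes tested then, 4613 were higher and 5016 lower in KO cells, and 4649 and 4852 in WT cells. With all libraries the background was 67.6% of all tested genes in KO cells (31.5% higher and 36.1% lower). In WT cells it was 70.4% (34.2% higher and 36.2% lower). The median log2 change of the 10 was 2.271 in KO cells and 2.434 in WT cells, against -0.048 and -0.024 over all genes. Nfkbiz rose most, by 5.58 ± 0.07 in KO cells and 5.84 ± 0.07 in WT cells (log2 ± SE), or 47.7-fold and 57.2-fold. Bcl3 rose by 3.99 ± 0.07 in KO cells and 4.53 ± 0.07 in WT cells, and Nfkbia by 3.14 ± 0.08 in KO cells and 3.60 ± 0.08 in WT cells. Nfkb1 rose by 3.14 ± 0.07 in KO cells and 3.12 ± 0.07 in WT cells, and Rel and Nfkb2 by 2.17 to 2.48 in either genotype. The rise of Nfkbib was 1.54 ± 0.11 in KO cells and 2.14 ± 0.11 in WT cells. The smallest rises were those of Relb (0.67 ± 0.09 in KO cells and 1.48 ± 0.09 in WT cells) and Nfkbie (1.04 ± 0.06 in KO cells and 1.97 ± 0.06 in WT cells). Limma adjusted p was 4.31e-06 or less for each of these 9 rises. Without replicate 4 of WT cells with LPS the rises in WT cells of these 9 ran from 1.43 for Relb to 5.93 for Nfkbiz, and each passed.

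Rela was at 582.4 ± 19.1 with LPS and 531.7 ± 37.0 untreated in KO cells, and at 668.1 ± 60.0 with LPS and 602 ± 18.5 untreated in WT cells (SD, n = 4 each). Its log2 change was 0.13 ± 0.07 in KO cells (SE, limma adjusted p = 0.101) and 0.15 ± 0.07 in WT cells (SE, limma adjusted p = 0.071). Both passed without replicate 4 of WT cells with LPS, at 0.13 in KO cells (adjusted p = 0.0122) and 0.21 in WT cells (adjusted p = 5.01e-04). Scaling by library totals moves the median of all genes in the LPS comparisons to -0.43 in KO cells and -0.48 in WT cells on the log2 scale, and Rela then reads -0.26 in KO cells and -0.32 in WT cells. Relative to that median Rela stood at 0.17 in KO cells and 0.16 in WT cells.

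**Figure D3:**
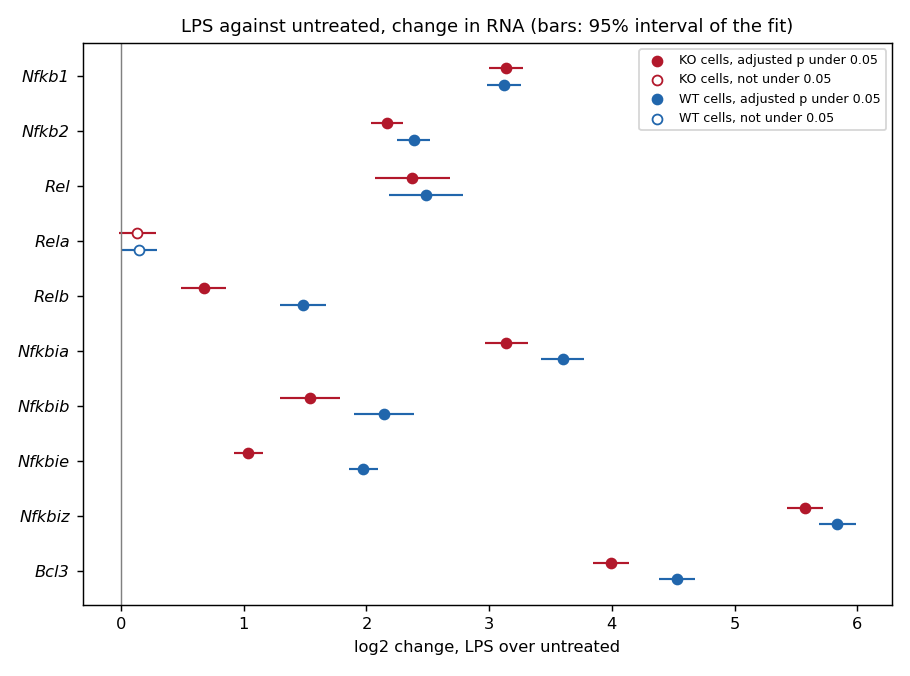
Log2 change of RNA with LPS over untreated cells for the 10 genes, in KO cells (upper point of each pair) and WT cells (lower point); bars are the 95% interval of the fit and filled points have a limma adjusted p under 0.05. The KO point lies left of the WT point for each gene but Nfkb1, with the widest gap at Nfkbie (1.04 in KO cells and 1.97 in WT cells).

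The difference of the 2 LPS responses was tested as an interaction. It passed for 5 of the 10 genes, all with a weaker rise in KO cells, where 20.7% of all tested genes passed, 10.4% lower and 10.2% higher. The differences were -0.94 ± 0.08 for Nfkbie (SE, limma adjusted p = 4.4e-07), -0.81 ± 0.12 for Relb (adjusted p = 1.66e-04), -0.60 ± 0.16 for Nfkbib (adjusted p = 0.0146), -0.54 ± 0.10 for Bcl3 (adjusted p = 6.85e-04) and -0.46 ± 0.12 for Nfkbia (adjusted p = 0.0098). Nfkbia, Nfkbib and Relb thus differed between genotypes with LPS and had no called difference untreated, while Bcl3 and Nfkbie were lower in KO cells in both conditions and by more with LPS. Nfkbiz, higher in KO cells throughout, had a difference of -0.26 ± 0.10 that missed the threshold (adjusted p = 0.0749). Nfkb1 had 0.02, with a 95% interval from -0.178 to 0.218. Without replicate 4 of WT cells with LPS 8 passed, and the 3 added were Nfkbiz (-0.35, adjusted p = 5.65e-06), Rel (-0.30, adjusted p = 0.00981) and Nfkb2 (-0.28, adjusted p = 7.42e-04). More of all genes passed then too, with 2259 higher and 2359 lower of 11882 tested.

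Levels per kilobase of the annotated transcript order the genes within a group. In all 4 groups Nfkbia held place 1, at 5681 ± 52.9 in KO cells and 7534 ± 1227 in WT cells with LPS, and at 644.9 ± 24.5 in KO cells and 615.5 ± 26.7 in WT cells untreated (SD, n = 4 each). Nfkb1 held place 2 in every group. In untreated cells Nfkb1 and Nfkbib overlapped, and Rela and Nfkb2 followed. With LPS Nfkbiz moved to place 3 in KO cells (2197 ± 35.0), where it held place 8 untreated (45.8 ± 0.853). In WT cells with LPS place 3 was held by Bcl3 (1731 ± 12.8), whose libraries overlapped those of Nfkbiz (1705 ± 200.9), while in KO cells with LPS Bcl3 held place 5 (605.5 ± 28.4) and overlapped Nfkb2 (568.8 ± 21.02). Without replicate 4 of WT cells with LPS the order turned there: Nfkbiz held place 3 at 1803 ± 45.5 (1772 to 1856), above Bcl3 at 1726 ± 11.0 (1716 to 1738; SD, n = 3 each), with no overlap. Bcl3 was last of the 10 in untreated KO cells (37.6 ± 3.24) and held place 6 in untreated WT cells (74.4 ± 5.13).

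A list of 46 other genes of the pathway, from the receptor to the kinases and the ubiquitin-editing enzymes, was tested whole. With LPS 7 were higher and 12 lower in KO cells (median -0.016), against 44.1% of all genes in either direction, and untreated 13 were higher and 8 lower (median 0.027), against 35.5%. For the difference of responses 8 were higher and 13 lower (median -0.061), against 20.7%. LPS raised 31 and lowered 8 in KO cells, against 31.5% and 36.1% of all genes (median 0.684, against -0.048 over all). In WT cells it raised 29 and lowered 8, against 34.2% and 36.2% of all genes (median 0.762, against -0.024). The genes named here were picked after their values were seen. Tlr4, the LPS receptor, was higher in untreated KO cells (log2 0.76 ± 0.13) and lower in KO cells with LPS (-0.61 ± 0.13), with a difference of responses of -1.36 ± 0.19 (SE, limma adjusted p = 7.72e-05). Map3k8, a kinase held by the Nfkb1 precursor, had 0.27 ± 0.08 untreated, -0.73 ± 0.08 with LPS and a difference of -0.9965 ± 0.11 (adjusted p = 1.16e-05). Tnfaip3, the ubiquitin-editing brake on NF-kB, was lower in KO cells with LPS (-0.53 ± 0.13, adjusted p = 0.00448), as was Tnip3, which encodes a Tnfaip3-binding protein (-1.19 ± 0.06, adjusted p = 7.33e-10). Nfkbid, another nuclear inhibitor gene, was higher in KO cells with LPS (0.57 ± 0.05), as were Peli1 (0.62 ± 0.05), a ubiquitin ligase gene, and Irak3 (0.78 ± 0.16), a negative regulator of receptor signalling. Map3k14, the kinase gene of the non-canonical pathway, was lower in untreated KO cells (-0.87 ± 0.16), and its difference of responses was 1.01 ± 0.23 (adjusted p = 0.00445).

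For each of the 10 genes the tested gene with the most similar pattern was found by Pearson r of log2 levels over the 16 libraries, which share the 4 groups, so r reflects the differences between groups. Nfkbiz was most like Rsad2 (r = 0.9996), Nfkb1 like Phf11d (0.9994), Nfkbia like Isg15 (0.9993), Nfkb2 like Irgm2 (0.9986), Rel like Flrt2 (0.9984) and Bcl3 like Csrnp1 (0.9983). Nfkbib was most like Tap2 (0.9958), Nfkbie like 4933412E12Rik (0.9908), Relb like Bambi-ps1 (0.9888) and Rela like Atxn7l3 (0.9562). Csrnp1 averaged 978.3 ± 32.3 in KO cells and 2425 ± 136 in WT cells with LPS, and 135.8 ± 8.55 in KO cells and 204.2 ± 4.34 in WT cells untreated (SD, n = 4 each).

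Open chromatin in untreated cells was tested at the 69 sites of the genes. Of these 1 was more open and 5 were less open in KO cells, with a background of 7.20% of all sites (4.04% higher and 3.16% lower), and the median log2 change was -0.002 at the 69 sites and 0 at all sites. The site that was higher lies at the start of Relb (chr7:20213640-20214947, mm9, first intron). It was at 8.18, 8.12 and 8.17 in KO libraries and at 7.95, 7.96 and 7.89 in control libraries, a log2 change of 0.22 ± 0.07 (SE, limma adjusted p = 0.028). The largest decrease was in intron 6 of Nfkb1, 62994 bases inside the gene (chr3:135290885-135292149), with 5.04 ± 0.07 in KO cells and 5.37 ± 0.01 in control cells (log2 values, SD, n = 3 each) and a change of -0.33 ± 0.08 (limma adjusted p = 0.00255). The others lay in intron 17 of Nfkb1 (-0.24 ± 0.08, adjusted p = 0.0471), in an intron of a gene 9279 bases from the Nfkb2 start (-0.26 ± 0.08, adjusted p = 0.0267), in intron 1 of Rel (-0.22 ± 0.07, adjusted p = 0.0372) and 26351 bases from the Nfkbiz start (-0.18 ± 0.05, adjusted p = 0.0158). Leaving out 1 library left 1 to 6 sites called, with 1 without KO replicate 3, 2 without control replicate 1, and 3 without KO replicate 1, control replicate 2 or control replicate 3. These sites are named because they passed, and so after their values were seen. The site nearest the start of Bcl3 stood at 7.47 ± 0.05 in KO cells and 7.51 ± 0.05 in control cells, and that of Nfkbie at 7.05 ± 0.11 in KO cells and 7.02 ± 0.11 in control cells, and neither passed.

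In ChIP-seq the mean chi-square between the 2 libraries of a group, over all sites with at least 50 reads, was 0.832 to 1.182, close to that of sampling noise. They were therefore counted as 1 sample, and no test of the conditions was made. At the sites of the 10 genes agreement was weakest in untreated KO cells for JunB, with a mean chi-square of 2.155 and 3 of 12 sites under an unadjusted p of 0.05, and for RNA polymerase II in KO cells with LPS it was 1.436, with 4 of 21 sites. Counts from limma given beside some results compare these libraries, not the conditions. A site is called where the group means differ at least 2-fold and both libraries of one group lie above both of the other. The intervals given are 95% counting intervals and cover counting error only. Values are reads per 10000000 mapped reads after trimmed mean scaling, which sets the median change of all sites near 0. Shares of mapped reads that fall in the listed sites differed between groups, and library totals move those medians. For RNA polymerase II the share was 14.2% to 14.4% in KO cells with LPS and 45.0% to 46.4% in WT cells with LPS, and the median of all sites with library totals was -1.817. For MED1 the shares were 8.81% to 8.92% in KO cells and 14.6% in WT cells with LPS, and the median was -0.746. All ChIP-seq differences below are therefore relative to the median site of their table, and what the shift stems from was not tested.

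RNA polymerase II stood higher in KO cells with LPS, relative to the other sites, at most sites of these genes. Of the 34 sites 21 were called higher and 0 lower, against a background of 20.4% of all sites, 12.8% higher and 7.58% lower. With limma and precision weights the counts were 24 higher and 2 lower, against 5591 higher and 4661 lower of all 23081 sites. The median log2 difference of the 34 sites was 1.40, against -0.01 over all sites, and 29 of 34 lay above 0. With library totals, 6 were called higher and 12 lower, with a median of -0.44 at the 34 sites against -1.82 at all sites.

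**Figure D4:**
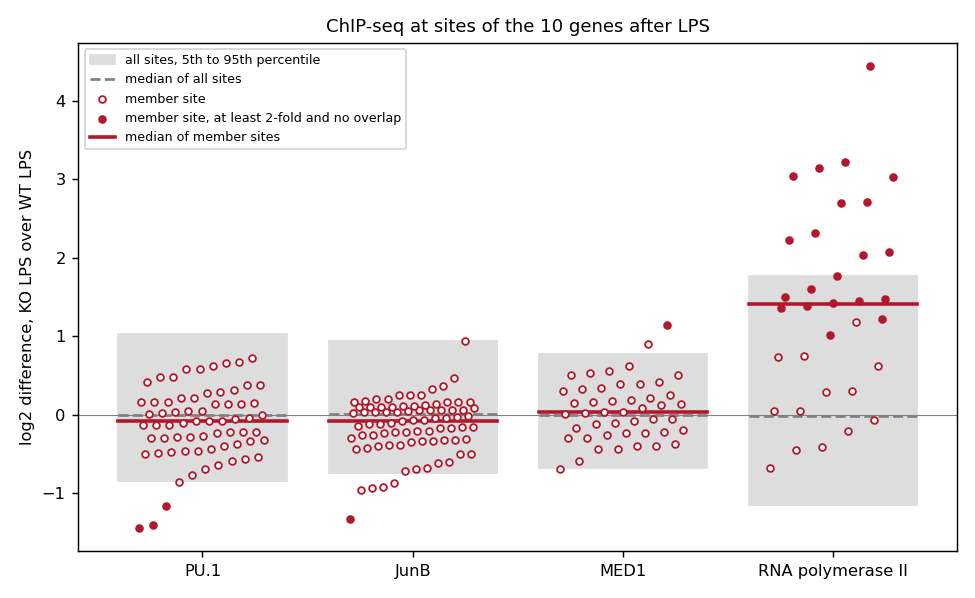
Log2 difference of KO over WT cells with LPS at every site of the 10 genes in the 4 ChIP-seq tables; filled points are at least 2-fold with no overlap of libraries, the red line is the median of the sites, and the grey band spans the 5th to the 95th percentile of all sites. The median of the RNA polymerase II sites is 1.40 and the medians of PU.1 (-0.08), JunB (-0.08) and MED1 (0.03) lie near 0.

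The inhibitor genes whose RNA was lower after 6 hours were among those with more RNA polymerase II at 2 hours, on this relative scale. Over Nfkbia (chr12:56583280-56595008, mm9) the scaled level was 4256 and 4122 in KO libraries with LPS, against 889.1 and 901 in WT libraries with LPS, a log2 difference of 2.23 (counting interval 2.164 to 2.288). At the start of Bcl3 it was 741.8 and 766.2 in KO libraries and 276.2 and 277.2 in WT libraries (1.44, 1.317 to 1.576), and at Nfkbie 115.1 and 124.5 in KO libraries and 40.03 and 29.01 in WT libraries (1.77, 1.452 to 2.151). With library totals the Nfkbia site stayed positive, and those of Bcl3 (-0.44) and Nfkbie (-0.09) fell below 0. The site nearest Nfkb2 reached 628.5 and 750.7 in KO libraries, against 141.1 and 133.1 in WT libraries (2.32), and is 8920 bases from the start. It runs from 46386295 to 46392386 and so lies mostly past the end of that gene, at 46386580. Relb had 1.36, Nfkb1 1.22 and Nfkbib 1.01 at their nearest sites, and each of these also fell below 0 with library totals. At the sites nearest the starts of Nfkbiz (0.29), Rel (-0.20) and Rela (-0.68) no call was made. With library totals the means in KO and WT cells were 58.67 and 177.1 for Nfkbiz, 100.1 and 426.1 for Rel, and 45.97 and 272.9 for Rela. Another Nfkbiz site, 953 bases from an annotated start, was called higher (1.43, means of 365.2 in KO and 135.1 in WT cells). With library totals its means were 190.3 in KO cells and 259.7 in WT cells.

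Among the RNA polymerase II sites of the 10 genes with a mean of at least 50 reads, the 3 largest differences lay within and behind Nfkbiz and behind Nfkbia. Inside Nfkbiz, at chr16:55827496-55832634 in intron 2, polymerase was at 373.6 and 423.8 in KO libraries with LPS, against 17.51 and 17.12 in WT libraries with LPS, a log2 difference of 4.45 (counting interval 4.163 to 4.908). Past the 3' end of Nfkbiz, 14079 bases from an annotated start, it was at 733 and 743.8 in KO libraries, against 77.05 and 79.41 in WT libraries (3.22, 3.051 to 3.428). Behind Nfkbia, 26926 bases from the start, it was at 678.1 and 686.7 in KO libraries, against 81.56 and 84.16 in WT libraries (3.03, 2.856 to 3.229). The first site of Nfkbiz, at its upstream start, was at 134.6 and 91.68 in KO libraries and 96.57 and 87.49 in WT libraries (0.29, -0.004 to 0.588).

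The median MED1 difference was 0.03, against -0.003 over all sites. Of its 46 sites 1 was called higher and 0 lower in KO cells with LPS (background 3.57%, 2.29% higher and 1.28% lower). With limma and precision weights the counts were 6 higher and 0 lower, against 1344 and 500 of all 26052 sites. With library totals 0 were higher and 8 lower, against 93 and 6416 of all. Leaving out 1 library gave 1 to 3 called sites, with 3 without KO replicate 1 and 2 without WT replicate 1. The called site, named after its value was seen, lies 12044 bases from an Nfkbiz start, with 66.25 and 57.63 in KO libraries and 33.58 and 21.64 in WT libraries (1.14, counting interval 0.722 to 1.616). Among sites with a mean of at least 50 reads the largest differences were 0.91 at a site 67126 bases from Nfkbiz, 0.55 at the start of Nfkb2 and 0.50 over Nfkbia. With library totals the Nfkbiz site had means of 74.24 in KO cells and 66.94 in WT cells. The other sites then turned lower in KO cells, at 118.7 against 137.4 for Nfkb2 and 485.5 against 584 for Nfkbia. The site at the Bcl3 start had 178.2 and 180.5 in KO libraries and 148.4 and 152.3 in WT libraries (0.25, 0.037 to 0.472), and that of Nfkbie 116.5 and 96.78 in KO libraries and 96.04 and 94.29 in WT libraries (0.16, -0.12 to 0.44). Both were lower in KO cells with library totals, with means of 137.3 against 196.3 at Bcl3 and 81.62 against 124.3 at Nfkbie.

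The median JunB difference with LPS over the 80 sites was 0.15 in KO cells and 0.36 in WT cells, against 0.07 and 0.004 over all sites. In KO cells 25 of 80 were called higher and 9 lower with LPS, against 20.1% and 13.2% of all sites (33.3% in either direction), and in WT cells 22 were higher and 3 lower, against 15.7% and 8.97% (24.6% in either direction). In KO cells 34 of the 80 sites lay below 0. With limma and precision weights 15 were higher and 13 lower in KO cells, against 8722 and 11695 of all 58810 sites. In WT cells that fit gave 26 higher and 9 lower, against 10162 and 12626 of all. Between KO and WT cells with LPS 0 were higher and 1 lower (background 5.70%, 4.16% higher and 1.54% lower), in intron 1 of Nfkb1, 7916 bases inside the gene. That site had 5.23 and 7.84 in KO libraries and 19.55 and 16.25 in WT libraries (-1.33, counting interval -2.066 to -0.840). With limma and precision weights 3 were higher and 13 lower in KO than in WT cells with LPS, against 8604 and 8500 of all sites. With library totals the counts were 0 and 5, against 1923 and 2048 of all. With 1 library left out 1 to 5 sites were called with LPS, with 5 without KO replicate 2 and 3 without KO replicate 1 or WT replicate 2. Untreated, 7 were higher and 6 lower in KO cells (background 18.2%, 9.79% higher and 8.45% lower). With library totals 72 of 80 sites were called higher with LPS in KO cells and 77 in WT cells, since the median of all JunB sites then lies at 2.074 and 1.882. The share of mapped reads in JunB sites was 25.2% to 26.4% in KO cells and 28.8% to 29.2% in WT cells with LPS, and 5.79% to 6.01% in KO cells and 6.91% to 7.51% in WT cells untreated.

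**Figure D5:**
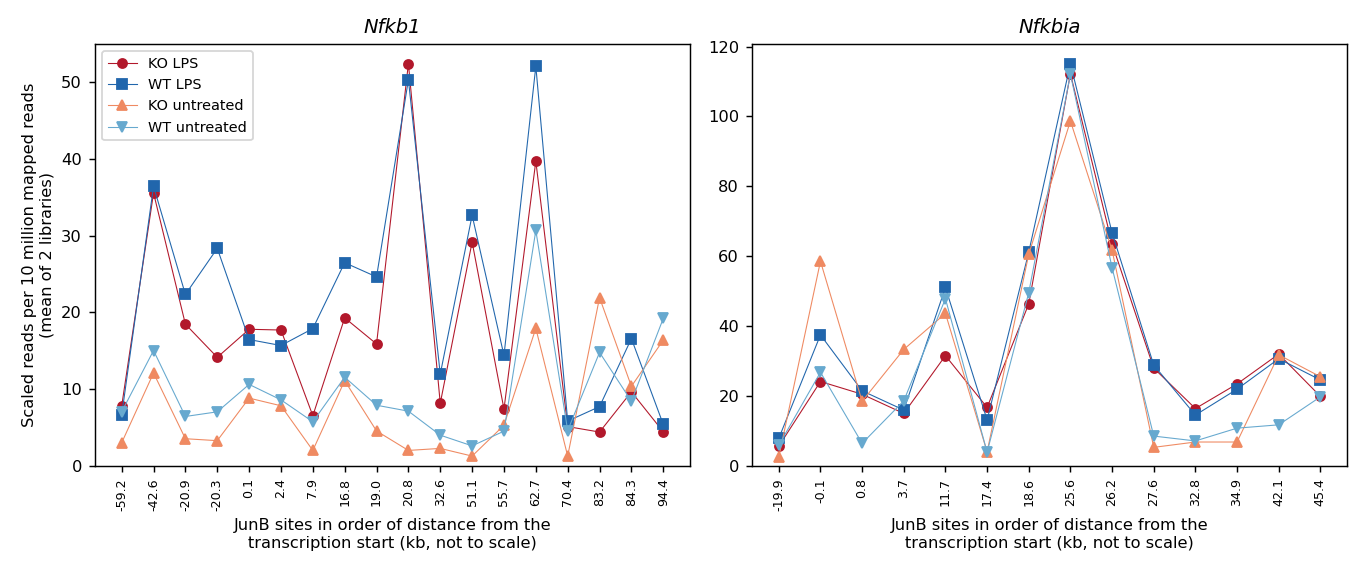
JunB signal at each site of Nfkb1 and Nfkbia in the 4 groups, as scaled reads per 10000000 mapped reads (mean of 2 libraries); sites run along the x axis in order of distance from the start in kb, not to scale. In Nfkb1 the site at 20.8 kb stands at 52.4 in KO cells and 50.3 in WT cells with LPS, and at 2.01 in KO cells and 7.13 in WT cells untreated.

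The strongest gain with LPS among the better covered sites was in intron 1 of Nfkb1, 20805 bases from the start (chr3:135333609-135333803). It had 55.12 and 49.78 with LPS and 4.02 and 0 untreated in KO libraries, and 47.67 and 53.0 with LPS and 7.32 and 6.95 untreated in WT libraries. The log2 difference was 4.15 in KO cells (counting interval 2.672 to 7.594) and 2.66 in WT cells (1.951 to 3.832), and the untreated KO value rests on 2 reads. A PU.1 site at the same place was also higher with LPS in both genotypes (2.51 in KO cells and 2.57 in WT cells), with a mean of 9.62 reads. Sites 67042 and 126693 bases from Nfkbiz were higher with LPS by 2.25 and 1.69 in KO cells and by 2.14 and 1.596 in WT cells. Among the JunB sites with a mean of at least 50 reads that lie in introns or between genes, 3 hold both a kappaB and an AP-1 match within 100 bases of the centre, and their sequences are shown for that reason. They are this Nfkb1 site, an Nfkbiz site 45624 bases from the start and the site nearest the Bcl3 start, at -1616 bases from it. Capitals mark kappaB and AP-1 (TGANTCA, either strand) matches.
Nfkb1 JunB site (mm9 chr3:135333606-135333806, plus strand): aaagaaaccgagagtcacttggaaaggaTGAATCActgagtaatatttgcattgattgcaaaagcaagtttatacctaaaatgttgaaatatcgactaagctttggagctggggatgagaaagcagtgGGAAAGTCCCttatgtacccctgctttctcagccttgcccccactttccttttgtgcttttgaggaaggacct
Nfkbiz JunB site (mm9 chr16:55776527-55776727, plus strand): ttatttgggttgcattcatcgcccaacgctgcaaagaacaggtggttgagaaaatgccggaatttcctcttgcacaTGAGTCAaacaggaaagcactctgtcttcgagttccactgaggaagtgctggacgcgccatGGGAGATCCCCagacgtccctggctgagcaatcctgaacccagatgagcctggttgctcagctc
Bcl3 JunB site (mm9 chr7:20409620-20409820, plus strand): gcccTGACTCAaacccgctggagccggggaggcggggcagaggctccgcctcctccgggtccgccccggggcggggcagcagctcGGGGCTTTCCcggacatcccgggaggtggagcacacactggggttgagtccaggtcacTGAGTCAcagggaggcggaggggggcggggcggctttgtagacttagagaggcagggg
The Nfkbiz site had 57.5 and 60.36 with LPS and 12.06 and 33.02 untreated in KO libraries, and 56.59 and 56.1 with LPS and 42.66 and 36.13 untreated in WT libraries. The Bcl3 site had 56.07 and 51.34 with LPS and 58.25 and 55.89 untreated in KO libraries, and 43.9 and 46.42 with LPS and 63.37 and 57 untreated in WT libraries, and was called in no comparison.
Within 100 bases of the centre, 15 of the 80 JunB sites held a kappaB match (18.75%), against 5.294% of all JunB sites. For PU.1 the count was 11 of 67 sites (16.418%), against 5.47% of all, and for ATAC-seq 6 of 69 (8.696%), against 4.707%. AP-1 matches were in 46.25% of the JunB sites of these genes and 52.4% of all, and PU.1 matches (GAGGAA, either strand) in 61.194% of their PU.1 sites and 61.286% of all.

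At the Nfkbia start (chr12:56593497-56593873) the JunB difference between genotypes went opposite ways in the 2 conditions. It had 20.43 and 27.83 in KO libraries and 37.04 and 37.91 in WT libraries with LPS (-0.61, counting interval -0.956 to -0.276), and 66.3 and 50.8 in KO libraries and 34.12 and 19.46 in WT libraries untreated (1.0995, 0.513 to 1.744). The difference of the responses was -1.71 (-2.385 to -1.043). With LPS against untreated it was lower in KO cells (-1.24) and higher in WT cells (0.47), and with library totals the KO value was 0.88. The start site of Relb was also higher in untreated KO cells, at 62.28 and 33.02, against 13.4 and 11.13 in WT libraries (1.87, 1.194 to 2.859). Its difference with LPS was 0.04 (-0.806 to 0.849), and this site has a mean of 14.6 reads. For the difference of responses 7 of 80 JunB sites were higher and 10 lower, against 12.7% and 10.8% of all (23.4% in either direction).

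The median PU.1 difference between KO and WT cells over the 67 sites was -0.08 with LPS and -0.01 untreated. With LPS 0 of 67 sites were higher and 3 lower in KO cells (background 8.07%, 5.31% higher and 2.76% lower), and untreated 0 were higher and 1 lower (background 3.51%, 1.21% higher and 2.30% lower). Leaving out 1 library gave 3 to 5 calls with LPS (5 without KO replicate 2 or WT replicate 1) and 1 to 6 untreated (6 without KO replicate 1, 3 without KO replicate 2 and 4 without WT replicate 2). The 3 lower with LPS, named after their values were seen, lie -25764 and -28585 bases from the Nfkb1 start (-1.41 and -1.44) and at -872 bases from that of Rela (-1.17), and have means of 10 to 18 reads. The Rela site had 6.94 and 13.9 in KO libraries and 20.61 and 28.6 in WT libraries with LPS. The site that was lower untreated is in intron 1 of Rel, 8134 bases inside the gene, at 9.48 and 2.43 in KO libraries and 15.73 and 10.59 in WT libraries (-1.03, -2.223 to -0.108), and it overlaps the less open site of Rel described above. LPS raised 8 sites and lowered 2 in KO cells (background 12.2%, 8.20% higher and 4.00% lower), and raised 8 and lowered 1 in WT cells (background 6.91%, 3.56% higher and 3.35% lower). With library totals the balance turned in KO cells, to 4 higher and 13 lower, against 1192 and 10852 of all 52009 sites. In WT cells it turned to 2 higher and 13 lower, against 264 and 13633 of all. The share of mapped reads in PU.1 sites was 11.7% in KO cells and 15.5% to 15.96% in WT cells with LPS, and 17.2% to 17.5% in KO cells and 24.8% to 25.2% in WT cells untreated. At the start of Nfkbie PU.1 was at 44.39 and 51.44 with LPS and 13.69 and 10.92 untreated in KO libraries, and at 27.88 and 33.89 with LPS and 20.32 and 18.91 untreated in WT libraries. The LPS responses of this site at 2 hours were 1.88 in KO cells and 0.63 in WT cells, a difference of 1.25 (counting interval 0.373 to 2.125). With library totals its means were 33.23 with LPS and 12.66 untreated in KO cells, and 28.57 and 29.71 in WT cells. Nfkbie RNA, read after 6 hours, had the weaker response in KO cells. For the difference of PU.1 responses 3 sites were higher and 5 lower, against 9.09% and 5.44% of all sites (14.5% in either direction), and without replicate 2 of untreated KO cells 13 were called. The start sites of Bcl3 differed by -0.10 (-0.443 to 0.220) with LPS and by -0.01 (-0.302 to 0.287) untreated.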

How the data were processed

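RNA, ATAC-seq and ChIP-seq tables of 46 libraries were used, and the other samples of the 247 in the series were not analysed here. RNA and ChIP-seq values were deposited by the authors as reads per 10000000 mapped reads, per the file headers. ATAC-seq values were deposited by the authors as log2 values over merged MACS2 peaks annotated with HOMER, per the file headers, and their exact transformation is not given in the sources used here. The build is mm9, and the submitters' processing notes also name Bowtie2, BWA, HISAT2, DESeq2 and edgeR. A further 8 per-sample columns of rescaled values were not used.

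All low RNA and ChIP-seq values, up to 200 reads, were whole reads within 0.05 read after multiplying by depth. RNA was tested with limma 3.58.1 in R 4.3.3, with trend and robust options, on log2 of the scaled value + 1, in 1 fit of 16 libraries with Benjamini-Hochberg adjustment (threshold 0.05). Fold changes on this scale understate the change of low genes. Genes needed 10 reads at the median depth in at least 4 libraries and 15 in all. ATAC-seq was tested the same way on the deposited values. The 2 ChIP-seq libraries of a group differed over all sites by about the sampling noise and were counted as 1 sample. The limma fits were also run on simulated data, and the outcome is not given here. The genes, sites and lists were chosen with earlier results of these data known. All 10 genes are named, with the gene most like each. Sites named are the nearest to each start and those with the largest differences among sites with a mean of at least 50 reads, with exceptions stated. Alternatives in scaling, pseudocount, model and libraries were tried. Figures were drawn with matplotlib 3.10.9 in Python 3.11.15.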

Additional observations from a re-analysis of the deposited data

Results flagged for a closer look

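Of 40 groups of 4 RNA libraries tested for a library far from the other 3, 6 had a gap, as a share of the group's range, above Dixon's 95% critical value, and chance flags about 5% of groups. In WT cells with LPS it was replicate 4 for Nfkbia (highest, 0.846), Nfkbie (highest, 0.848) and Rela (lowest, 0.843). This is the library that stood apart as a whole. In KO cells with LPS it was replicate 1 for Nfkb1 (lowest, 0.901) and replicate 3 for Nfkbib (highest, 0.932), and in untreated WT cells replicate 1 for Bcl3 (highest, 0.876).

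The LPS response differed between KO and WT cells, by the interaction test in limma with an adjusted p under 0.05, for Nfkbie (-0.94), Relb (-0.81), Nfkbib (-0.60), Bcl3 (-0.54) and Nfkbia (-0.46; log2, KO minus WT). In each of these 5 genes the rise was smaller in KO cells.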

How the results depend on the processing

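With LPS the RNA differences of Bcl3 and Nfkbie between KO and WT cells kept direction and call without replicate 4 of WT cells and with library totals. Calls of the 10 genes untreated were 6 when only the groups compared were fitted and 6 with precision and library weights, against 3. The difference of responses had 8 with those weights, against 5. Over all genes untreated, the first setting called 3652 higher and 3529 lower of 11478, and the weights 3742 and 3656 of 11791. For the difference of responses the weights called 2190 higher and 2240 lower of all genes. Weighted RNA fits were chosen after seeing the data. Leaving out 1 library gave 3 to 7 calls untreated, 7 to 9 with LPS, 9 to 10 for LPS in KO or WT cells and 5 to 8 for the difference of responses. The upper ends were reached without replicate 4 of WT cells with LPS, where more of all genes passed as well. With replicate number as a block the counts were 3 untreated, 8 with LPS, 9 for LPS in either genotype, 5 for the difference of responses and 6 ATAC-seq sites. Same-numbered RNA libraries correlated between -0.367 and 0.211 in their deviations from group means. No pairing by number was seen, though low correlations cannot exclude a shared culture or batch.

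Small changes reversed. Library totals gave Relb -0.0088 and Nfkbia -0.013 untreated, and Rela -0.2564 for LPS in KO cells, -0.3201 in WT cells and 0.0637 for the difference of responses, which was 0.0038 with median-of-ratios size factors. Precision and library weights gave Nfkbib 0.0072 untreated, Rel -0.1327 with LPS and Nfkb1 -0.0535 for the difference of responses. With 1 library left out, Nfkbib untreated ran from -0.0987 to 0.0497 and Rel with LPS from -0.1314 to 0.1753. The differences of responses ran from -0.0609 to 0.0631 for Nfkb1, from -0.3021 to 0.0045 for Rel and from -0.08 to 0.0223 for Rela. ATAC-seq ran from -0.1446 to 0.021 at the Nfkb1 start, from -0.0226 to 0.0951 at that of Nfkbie and from -0.0793 to 0.0295 at that of Rela.

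ATAC-seq had 3 calls with no trend, and 1 to 6 with 1 library left out. PU.1 counts with library totals, a pseudocount of 8 and limma with precision weights were 9, 0 and 6 untreated, 6, 1 and 1 with LPS, 17, 6 and 17 for LPS in KO cells and 15, 3 and 19 for LPS in WT cells, and 0 with the pseudocount for the difference of responses. JunB counts were 4 (pseudocount) and 6 (weights) untreated, 5, 0 and 16 with LPS, 72 and 15 (totals and pseudocount) for LPS in KO cells, 77 and 10 in WT cells, and 5 and 5 (pseudocount and weights) for the difference of responses. MED1 counts were 8, 0 and 6. Counts over all sites changed with these settings as well. Leaving out 1 library gave PU.1 counts of 1 to 6 untreated, 3 to 5 with LPS, 9 to 10 for LPS in KO cells, 9 to 10 in WT cells and 6 to 13 for the difference of responses. The JunB counts were 18 to 18, 1 to 5, 32 to 36, 26 to 27 and 15 to 24 in the same order, those of MED1 1 to 3 and those of RNA polymerase II 21 to 22. Among called differences at the sites nearest each start, library totals reversed JunB at Relb (LPS in WT cells, 0.7356) and Nfkbia (LPS in KO cells, 0.8817). They also reversed RNA polymerase II at Nfkbie (-0.0924), Bcl3 (-0.4387), Relb (-0.5107), Nfkb1 (-0.6532) and Nfkbib (-0.8367). Differences that were not called changed sign as well, such as those of MED1 at the starts of Bcl3, Nfkb2 and Nfkbie. Library totals move the median of all sites, and other causes were not tested. The planned edgeR fit on whole reads recovered from the deposited values was not run. Limma with precision weights was run on those reads. Sites with few reads limit the ChIP-seq differences.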
